A study of Arabidopsis thaliana with 12 samples.

Results

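A set of 122 cDNA clones, of 11926 on the array, gave a lower signal in Arabidopsis thaliana seedlings that were pretreated with lanthanum ions (La) before the calmodulin antagonist W7 than in seedlings given W7 alone. On average over its arrays, W7 against the solvent DMSO left the same clones near a ratio of 1. Each clone is an EST (expressed sequence tag, a cDNA fragment that stands for part of a transcript) spotted on a glass slide. The members were chosen on these measurements. A member had a mean deposited log2 ratio of at least 0.7 over the 3 arrays that compared W7 with La+W7 (written W7/La+W7), with every array above 0.3, and a mean between -0.5 and 0.5 over the 3 arrays of W7 against DMSO. Before that, a clone had to reach an intensity of 500 in either channel on all 3 arrays of W7/La+W7, which 9775 clones did. Of those, 358 met the condition on W7/La+W7. Among the 358, 235 had a W7 ratio above the limit, 1 had a W7 ratio below it, and 122 stayed inside.

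Calmodulin is a small calcium-binding protein that relays a rise in cellular calcium to many enzymes and transcription factors. W7 (a naphthalenesulfonamide) and trifluoperazine (TFP, a phenothiazine) bind calmodulin and block its action on its targets, and both are widely used to probe calcium signalling in plants. Lanthanum ions block calcium channels of the plasma membrane, so that a pretreatment limits the entry of calcium into the cell. A comparison of W7 with and without La therefore asks which transcripts need calcium entry in W7-treated seedlings, as the study's own wording of W7 with and without calcium implies.

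Seedlings were treated for 1 h, and total RNA from 2 treatments was labelled with Cy3 and Cy5 and hybridised to 1 slide, so each ratio is the first named treatment over the second. The study had 4 experiments, written here by the RNA pair on the slide. TFP/DMSO and W7/DMSO set each antagonist against its solvent, W7/La+W7 set W7 alone against W7 given after La, and La+W7/La+DMSO set W7 against DMSO in seedlings that had all received La. Each had 3 arrays that the study calls independent biological repeats. No ecotype, genotype, seedling age or dose is given in the sources used here. The RNA named first carried Cy5 on TFP/DMSO arrays 1 and 2, on W7/DMSO array 2 and on La+W7/La+DMSO arrays 2 and 3. On every other array it carried Cy3. All 3 arrays of W7/La+W7 thus had the same dye orientation, although the study's design text mentions a dye swap in each experiment.

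Several points about the arrays bear on the members. The scanner files under W7/DMSO arrays 1 and 2 held identical values, so array 2 is known only from the authors' deposited ratio, and the linear model had 11 arrays. In the scanner headers, the image of the control channel on W7/La+W7 arrays 1 and 2 is named for La alone and that of array 3 for W7 with La, whereas the labels name La+W7 for all 3. Which is right was not tested. The headers place W7/La+W7 arrays 1 and 2 in 1 image folder and array 3 in another, together with TFP array 3 and W7/DMSO array 3. Median intensities of the EST spots ran from 667 to 2659 scanner units, and the 95th percentiles of the blank spots from 84.1 to 704. The spot names matched 0 of 38312 genes in the supplied gene table, so members are given by clone name, their functions are not stated, and no check of tissue markers was made.

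On the arrays that chose them, the members had median log2 ratios of 0.72, 1.21 and 0.54 on W7/La+W7 arrays 1, 2 and 3. In linear terms these medians are 1.65-fold, 2.31-fold and 1.45-fold more signal without La than with it. The mean of the array medians was 0.82 ± 0.35 (SD, n = 3), and the other 9653 clones had array medians of 0.00, -0.01 and -0.01. Array 2 gave the highest of the 3 values for 85 of the 122 members (69.7%; 39.2% of all 9775 clones). Its log2 ratios were also the most widely spread over all 9775 clones, with an SD of 0.79 against 0.50 on array 1 and 0.44 on array 3. In units of each array's SD the members' medians were 1.44, 1.52 and 1.21. The rule used these arrays, so nothing is read from these values. A log2 ratio of at least 1 was reached by 86 members on array 2, by 25 on array 1 and by 10 on array 3. Seedling RNA pools all cell types, so fewer cells of a type and less RNA per cell cannot be told apart.

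**Figure D1:**
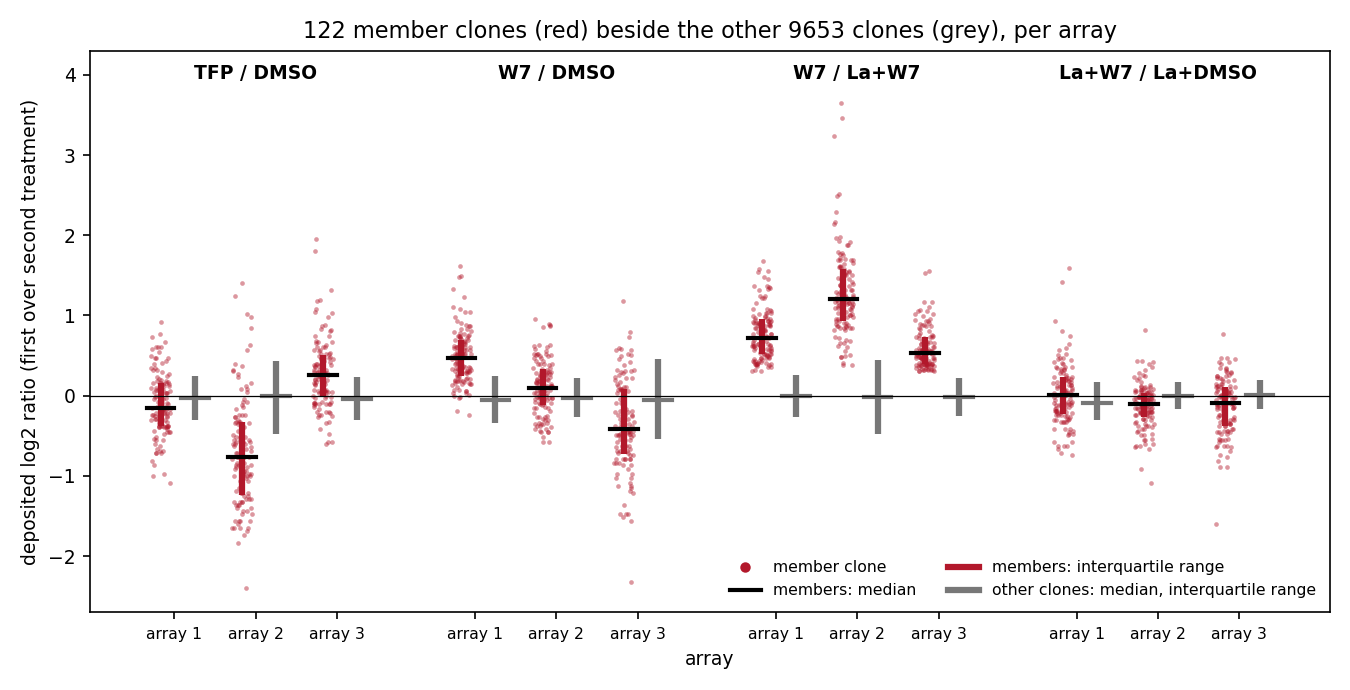
Deposited log2 ratio of each member on each of the 12 arrays (red points, with the median as a black line and the interquartile range as a red bar), beside the median and interquartile range of the other 9653 clones (grey). The members were chosen to be high on the W7 / La+W7 arrays, and their medians on the W7 / DMSO arrays run from 0.46 on array 1 to -0.42 on array 3.

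The size of the difference was modest for most members. Their means over the 3 arrays ran from 0.70 to 1.63 with a median of 0.84 (1.79-fold), and 44 of the 122 lay under 0.8. A mean of at least 1 was found for 20 members. Only H36688 reached 1 on all 3 arrays, and 48 members reached 0.5 on all 3. At the lower end, the members just inside the threshold were N37904, AA067528 and AA067560, with means of 0.7032, 0.7014 and 0.7004. The clones just outside it, T22764, N96785 and H77093, had means of 0.6997, 0.6990 and 0.6928, so the boundary cut through a continuous run of values.

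Among the 10 members with the highest mean, T44125 led with 1.55, 2.51 and 0.84 on W7/La+W7 arrays 1 to 3, a mean of 1.63 ± 0.84 (SD, n = 3). T22494 followed with 1.32, 2.50 and 0.75. Like all members, both lay above 0.3 on every array, as the rule required. N96991 gave 0.43, 3.65 and 0.38. N65076 gave 0.39, 3.23 and 0.72. AA067507 gave 0.31, 3.46 and 0.57. For these 3 clones array 2 supplied most of the mean, and arrays 1 and 3 lay at 0.72 or below. T42971 had ratios of 1.37, 2.16 and 0.48. H36688 had ratios of 1.67, 1.12 and 1.17, the tightest of the 10 with a mean of 1.32 ± 0.31. It was also the only one of the 10 whose highest value was not on array 2. T21120 had 1.24, 1.79 and 0.65, H76936 had 1.22, 1.77 and 0.65, and AA067399 had 0.57, 2.28 and 0.64. Over the 10 clones, array 2 exceeded array 3 in 9.

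**Figure D2:**
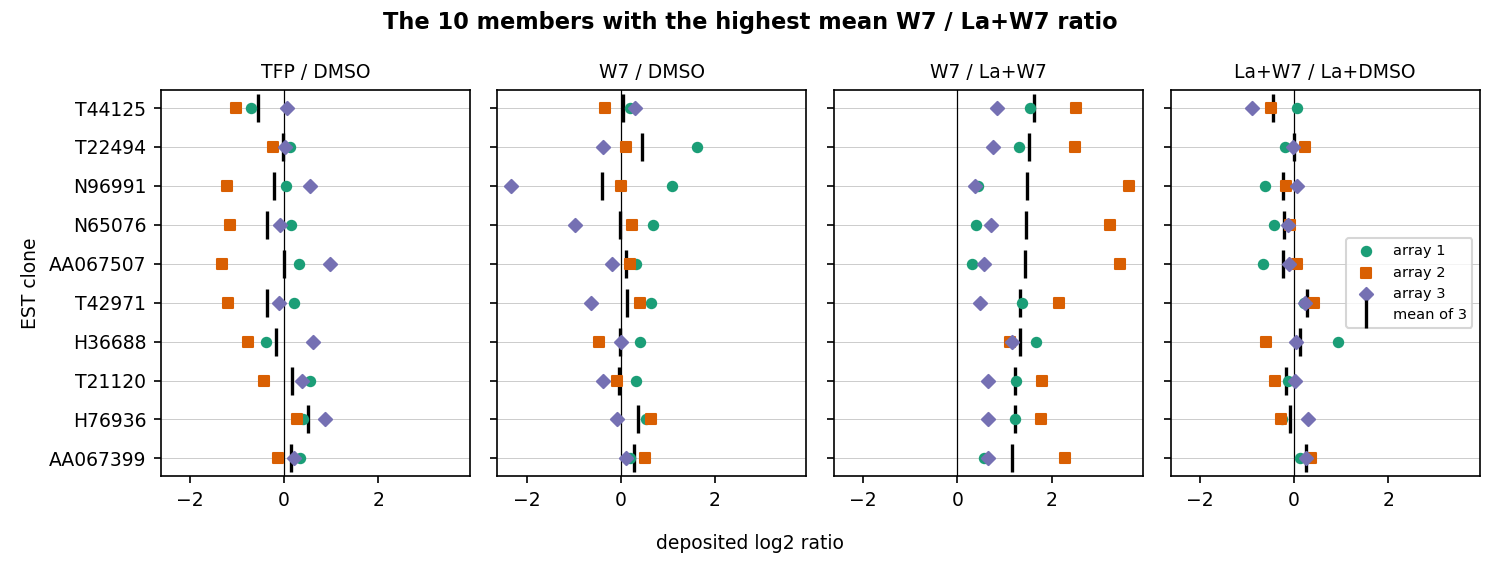
Deposited log2 ratios of the 10 members with the highest mean in W7 / La+W7, by experiment, with a symbol for each array and a black tick for the mean of 3. In the W7 / La+W7 panel array 2 (orange squares) is the highest value for 9 of the 10 clones, and in the TFP / DMSO panel array 2 is below 0 for 9 of the 10.

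Against DMSO, W7 left the members' mean log2 ratio between -0.49 and 0.50, as the rule required, with a median of 0.09. The members' medians on W7/DMSO arrays 1, 2 and 3 were 0.46, 0.10 and -0.42, while those of the other clones were -0.06, -0.03 and -0.06. Array 3 had the widest spread over the 9775 clones, with an SD of 0.83 against 0.58 on array 1 and 0.53 on array 2. In units of each array's SD the members' medians were 0.80, 0.18 and -0.50. Only 80.2% of the EST spots on array 3 exceeded the 95th percentile of the blanks in a channel. On the other arrays with scanner data 91.1% to 98.0% did. Array 1 was above 0 for 117 of the 122 members, and array 3 was below 0 for 85. Array 1 above 0 together with array 3 below 0 was found for 80 members (65.6%), compared with 20.7% of the 9775 clones. The reverse order was found for 0 members. Ratios within 0.5 of 0 on all 3 W7/DMSO arrays were measured for 28 members (23.0%), against 31.4% of the 9775 clones. W7/DMSO arrays 1 and 3 differed by more than 1 for 50 members (41.0%), against 22% of all clones. The members' median SD over the 3 W7/DMSO arrays was 0.51, against 0.38 for all 9775 clones. These arrays chose the members, so the figures describe them and nothing is read from their distance to those of all clones.

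Individual members showed both kinds of profile. T22494 gave 1.61, 0.11 and -0.38 on W7/DMSO arrays 1 to 3. N96991 gave 1.08, 0.01 and -2.32. In both, a high value on array 1 was offset by a low one on array 3. AA067399 gave 0.20, 0.51 and 0.11, a small range on all 3 arrays. On all 3 W7/DMSO arrays 24 members were above 0 (background 16.6%) and 3 were below 0 (background 21.7%), again on arrays that the rule used.

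The members were not spread evenly over the slide, which the rule did not use. Spots were printed in 32 blocks, 8 rows of 4. The last row of blocks held 65 of the 122 members (53.3%) and 12.7% of the 9775 clones. In its last block 36 of 297 clones were members (12.1%), whereas in the other 7 rows 57 of 8538 clones were (0.668%). The last column of blocks was also rich in members: 68 (55.7%) lay in it, compared with 24% of all clones. Of the blocks, 8 held 0 members. The placement of clones on the slide is fixed by the printing, and how it relates to the genes they stand for is not stated in these sources.

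Other clones in the same area had shifted ratios too. Members aside, the clones of the last row of blocks had median log2 ratios of 0.12, 0.33 and 0.16 on W7/La+W7 arrays 1 to 3, while those of the other rows had -0.01, -0.06 and -0.04. In the last block alone, non-members had 0.37, 0.59 and 0.18. On TFP array 2 the non-members of the last row had a median of -0.32, against 0.04 elsewhere. After each deposited ratio was centred on the median of its block, a step chosen after the data had been seen, 67 clones met the rule and 46 of them were members (37.7% of the members, 68.7% of the 67). Of the 65 members in the last row, 57 no longer met it. Of the 10 leading clones, 7 did: T44125, T22494, N65076, T42971, H36688, T21120 and H76936. The 46 members had block-centred medians of 0.78, 1.19 and 0.59 on W7/La+W7 arrays 1 to 3. On the W7/DMSO arrays their block-centred medians were 0.43, 0.24 and -0.35. Both sets of arrays chose these clones, so their values are a description.

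**Figure D3:**
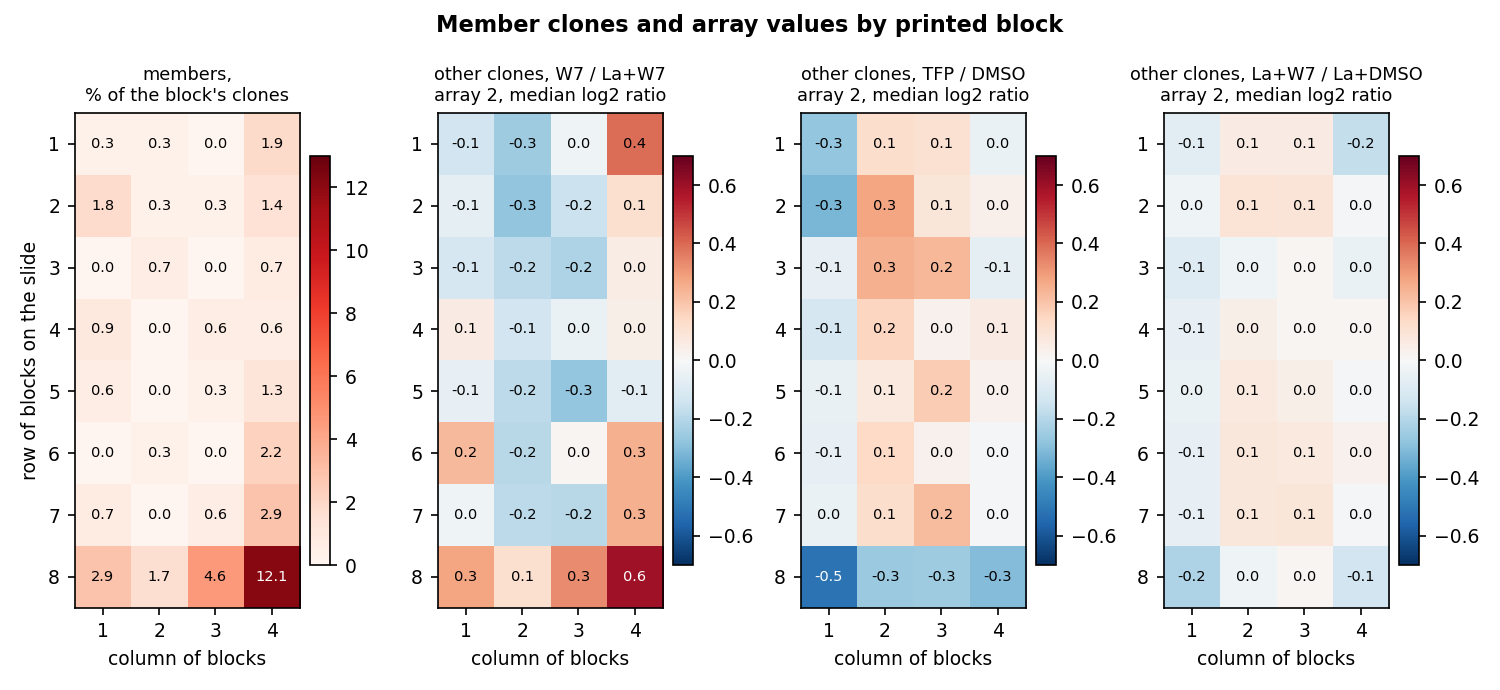
Maps of the 32 printed blocks (8 rows, 4 columns). The left map gives the percentage of each block's clones that are members, highest at 12.1% in the last block, and the others give the median deposited log2 ratio of the clones that are not members on array 2 of W7 / La+W7, TFP / DMSO and La+W7 / La+DMSO, where the last row of blocks lies above 0 on the first and below 0 on the second.

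Membership also rested most on W7/La+W7 array 2. Leaving out an array of W7/La+W7 also removes its condition of a ratio above 0.3. Without W7/La+W7 array 1 the rule gave 228 clones, of which 109 were members, and without array 3 it gave 328, of which 114 were. Without array 2 it gave 93 clones that held 57 members (46.7% of the members, 61.3% of the 93). On the mean of arrays 1 and 3 alone, 65 of the 122 members lay under 0.7. Leaving out a W7/DMSO array in turn gave 105 to 119 clones with 97 to 101 members among them.

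The TFP arrays were not used to choose the members. Across clones, however, TFP and W7/DMSO ratios ran together, so the rule's limit on the mean W7/DMSO ratio also bears on the TFP values. TFP is a calmodulin antagonist of another structural class, and the experiment had no La. On TFP arrays 1, 2 and 3 the members had median deposited log2 ratios of -0.15, -0.76 and 0.26, a mean of -0.22 ± 0.51 (SD, n = 3), and the other clones had -0.03, 0.00 and -0.04. The spread between the arrays was larger than the mean. Over the 9775 clones the SD was 0.55, 0.78 and 0.49 on TFP arrays 1 to 3. In units of that SD the members' medians were -0.28, -0.97 and 0.53. On array 2 104 of the 122 members lay below 0, and on array 3 89 lay above 0. Array 2 below 0 together with array 3 above 0 was found for 75 members (61.5%), compared with 21.2% of the 9775 clones. On all 3 TFP arrays 12 members were above 0 (9.84%, background 16%) and 16 were below 0 (13.1%, background 17.7%). The members' median SD over the TFP arrays was 0.61, against 0.39 for all 9775 clones.

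A limma model with a coefficient for each experiment and a shared dye term was fitted to 9180 clones above background, of which 100 were members. The other 22 members were not tested, because on at least 1 of the 2 W7/DMSO arrays with scanner data they did not exceed the blank spots, and 18 of the 22 lie in the last row of blocks. For TFP/DMSO the members' median fitted log2 ratio was -0.12 (interquartile range -0.29 to 0.10), against -0.01 for all clones tested. The members' median was -0.22, 0.09 and -0.33 without TFP array 1, 2 and 3 in turn, and 0.37 with image folder as a block, so its sign was not the same in all fits. After Benjamini-Hochberg adjustment over the 9180 clones, limma called 1 of the 100 members (1%), against a background of 2.43% (208 clones, or 2.27%, higher and 15, or 0.163%, lower). At an unadjusted p under 0.05 it was 5 members, against a background of 11.3%; 3 were higher (background 7.48%) and 2 were lower (background 3.85%). These shares of the members were below those of all clones. The rule had limited the members' mean W7/DMSO ratio. In the ratios used for the fit, TFP and W7/DMSO arrays correlated at 0.18 to 0.61 across clones. That limit thus bears on the shares for TFP, and nothing is read from their distance to those of all clones. The members' median SE was also larger, at 0.29 against 0.24 for all clones tested. The SE of a clone pools its spread over all arrays of the fit, including those that chose the members. The choice thus bears on the SE and on the p-values of each experiment. A fit of only the TFP/DMSO and La+W7/La+DMSO arrays called 287 of the 9180 clones for TFP/DMSO, and 1 of the 100 members. The median 95% half-width of a member's fitted ratio was 0.63.

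H76525 was the member called with TFP. Its deposited log2 ratios were 0.92, 1.40 and 1.08 on TFP arrays 1 to 3, all above 0, and its fitted ratio was 1.08 ± 0.25 (SE, limma adjusted p = 0.0396). On W7/DMSO arrays 1 to 3 it gave 0.38, 0.52 and 0.07, and on the arrays of W7/La+W7 0.36, 0.96 and 1.55. H76525 was thus highest on array 3 of W7/La+W7, and it met the rule after block centring. The call was lost under 9 of the 22 alternative fits, with adjusted p-values from 0.0174 to 0.592 over all of them. Leaving out TFP array 1, 2 or 3 gave 0.0684, 0.207 and 0.592, and leaving out array 2 or 3 of La+W7/La+DMSO gave 0.0602 and 0.0754.

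Among the tested members, the others with the highest fitted TFP ratios were AA042542 at 0.75 ± 0.35 (SE), N65737 at 0.58 ± 0.20 and R65352 at 0.55 ± 0.30. Their limma adjusted p-values were 0.446, 0.223 and 0.537. N65737 was even across the TFP arrays, with 0.61, 0.85 and 0.39, while AA042542 rested on 1 of them, with 0.28, -0.51 and 1.96. The lowest were T44642 at -0.79 ± 0.41, W43349 at -0.72 ± 0.41, W43181 at -0.62 ± 0.27 and T45966 at -0.58 ± 0.34, with limma adjusted p-values of 0.398 to 0.578. T44642 gave -1, -2.40 and 0.15 on the TFP arrays, and W43181 gave -0.69, -1.74 and -0.12. In all 4 of the lowest clones, array 2 had the lowest ratio, between -1.64 and -2.40. Members in the last row of blocks had a median fitted TFP ratio of -0.23, and those in the other rows had -0.0019. Members not tested have no fitted ratio. Of these, T45884 had the highest deposited TFP ratios, with 0.73, 0.99 and 0.89, followed by H77133 with 0.61, 1.24 and 0.29. Both met the rule after block centring. AA042521 had the lowest mean of those not tested, -0.68.

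Array 2 of TFP and array 2 of W7/La+W7 mirrored each other although no labelled RNA is common to them. Over the 122 members their deposited log2 ratios had a Pearson correlation of -0.48, and over all 9775 clones it was also -0.48 (-0.47 after block centring). TFP arrays 1 and 3 correlated with W7/La+W7 array 2 at 0.16 and 0.20 over the 9775 clones, and array 2 of TFP correlated with W7/La+W7 arrays 1 and 3 at 0.10 and 0.11. In the ratios used for the fit, W7/DMSO array 3 correlated with TFP array 2 at 0.61 and with W7/La+W7 array 2 at -0.31. For W7/DMSO array 1 these values were 0.18 and 0.38. These correlations run across clones that share slides and positions and are given as a description. Over the members, W7/La+W7 array 2 also ran against arrays 1 and 3 of its own experiment, at -0.28 and -0.34, whereas over all 9775 clones it ran with them, at 0.32 and 0.37; choosing on the mean of 3 arrays bears on the former.

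**Figure D4:**
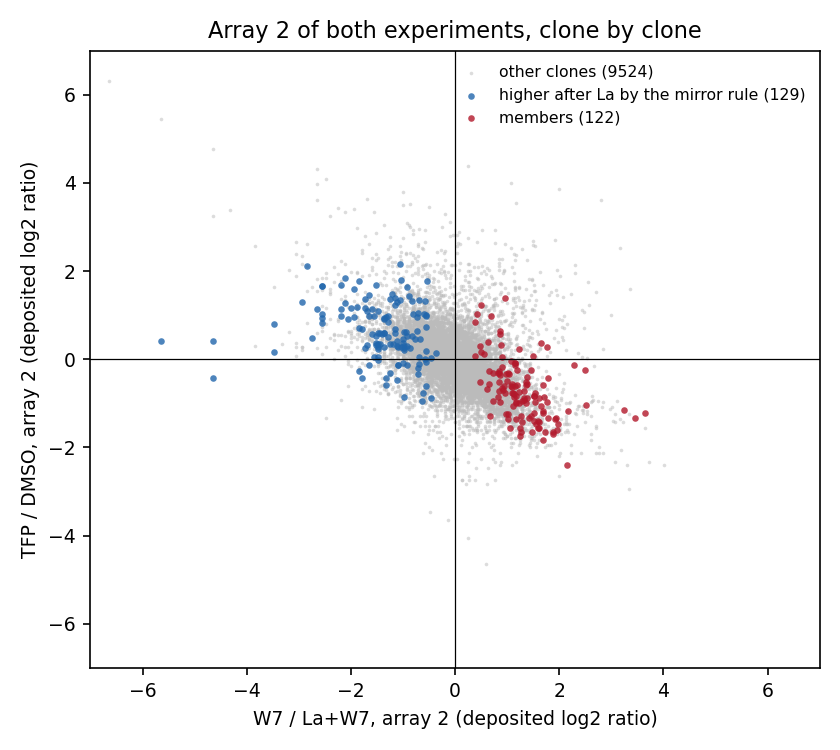
Deposited log2 ratio on array 2 of TFP / DMSO (vertical axis) against array 2 of W7 / La+W7 (horizontal axis) for 9775 clones, with the 122 members in red and the 129 clones of the mirror rule in blue. Most members lie at the lower right, with TFP values below 0 for 104 of them, and the cloud of all clones slopes the same way, at a Pearson correlation of -0.48.

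La+W7/La+DMSO compared W7 with DMSO in seedlings that had all received La, and it shares the La+W7 treatment with the arrays that chose the members. The members had median deposited log2 ratios of 0.01, -0.10 and -0.09 on its arrays 1 to 3, a mean of -0.06 ± 0.06 (SD, n = 3), and the other clones had -0.09, 0.00 and 0.01. These medians pool 2 regions of the slide that differed. Members in the last row of blocks had 0.06, -0.12 and -0.30, with an SD over arrays of 0.18. Those in the other rows had -0.10, -0.06 and 0.07, with an SD of 0.09. Non-members of the last row had 0.04, -0.09 and -0.17. All 3 ratios lay within 0.5 of 0 for 80 of the 122 members (65.6%), compared with 69.3% of the 9775 clones. All 3 were below 0 for 17 members (13.9%, background 12.3%) and above 0 for 6 (4.92%, background 8.49%). The members' median SD over these arrays was 0.29, close to the 0.26 of all clones.

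In the limma fit the members' median for La+W7/La+DMSO was 0.0049, against -0.00016 for all clones; it was 0.24 without array 1 and 0.66 with image folder as a block. By adjusted p, limma called 0 of 100 members and 0 of 9180 clones (0%). In simulated data the fit called 44% of clones picked at random from all tested and given a log2 change of 1 in this experiment. The rate for the members was not simulated. At an unadjusted p under 0.05 it found 1 member, T23032, against a background of 2.4% (1.9% higher). T23032 had deposited ratios of 0.74, 0.06 and 0.25 on these arrays and a fitted ratio of 0.58 ± 0.21 (SE, limma adjusted p = 1.00). R90635 at 0.44 ± 0.31, T21777 at 0.37 ± 0.23 and H76525 at 0.34 ± 0.25 were the next highest. R90635 ranged from -0.92 to 1.41 across the 3 arrays. The lowest were AA042542 at -0.30 ± 0.35, N38653 at -0.27 ± 0.34, N65409 at -0.24 ± 0.29 and N65076 at -0.21 ± 0.49, and the smallest limma adjusted p among the members was 1.00. Apart from T23032, these fitted values lay within 2 standard errors of 0. Only tested members are ranked here. Of those not tested, H76948 had the lowest mean deposited ratio, with -0.74, -1.09 and -0.34 on the 3 arrays. AA067399 had the highest, with 0.14, 0.36 and 0.26.

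All 3 W7/La+W7 arrays had 1 dye orientation, so on them the treatment and the dye cannot be told apart. The dye term of the fit, the log2 difference between test RNA in Cy3 and in Cy5, comes from the TFP and La+W7/La+DMSO arrays alone, since the other experiments with scanner data had the test RNA in Cy3 throughout. Its median over the 100 members was 0.40 (Cy3 over Cy5, interquartile range 0.17 to 0.69), against 0.0043 for all clones. It was above 0 for 86 members (86%), compared with 50.5% of the 9180 clones. By adjusted p limma called 0 members and 0 clones (0%). In simulated data the fit called 2% of clones picked at random from all tested and given a dye difference of 1 on the log2 scale. At an unadjusted p under 0.05 it was 17 members, all higher, against a background of 6.63% (4.78% higher). TFP array 2, which enters this term, mirrored W7/La+W7 array 2, on which the members were chosen. The choice thus bears on the dye term, and nothing is read from these distances to all clones. R90635 had the highest coefficient, 1.49 ± 0.45 (SE, limma adjusted p = 0.624), and among the leading 10 H36688 had 1.18 ± 0.33 (limma adjusted p = 0.614). The coefficient is uncertain for a single clone, with a median 95% half-width of 0.92 among the members.

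Members in the last row of blocks had a median dye coefficient of 0.56, and those in the other rows had 0.32. Non-members of the last row had median deposited log2 ratios of -0.14 and -0.32 on TFP arrays 1 and 2 (Cy5), and 0.12 on array 3 (Cy3). On La+W7/La+DMSO they had 0.04 on array 1 (Cy3), and -0.09 and -0.17 on arrays 2 and 3 (Cy5). With print-tip loess, which normalizes within blocks and was added after seeing the data, the median dye coefficient over all tested members was 0.22. Every array with the test RNA in Cy5 and a scanner file of its own lay in 1 image folder, so dye orientation and image folder cannot be told apart. Leaving out TFP array 2 lowered the members' median dye coefficient to 0.20, and leaving out TFP array 3 lowered it to 0.13. Leaving out La+W7/La+DMSO array 1 raised it to 0.73. With the dye term in the fit, the 100 members had a median fitted W7/La+W7 ratio of 0.69, and without it 0.91. In the fit with the dye term, 40 clones (0.436%) were called for W7/La+W7 and 0 of them were members. Without the dye term 308 clones (3.36%) were called, 21 of them members. The rule used those arrays, so nothing is read from these counts.

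**Figure D5:**
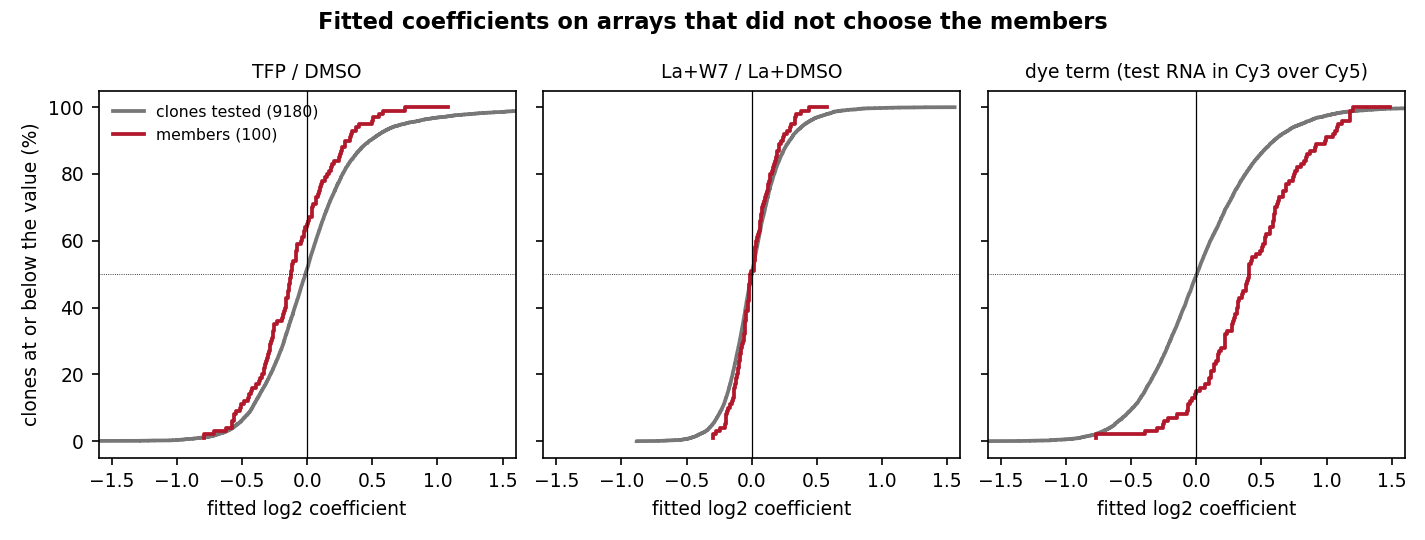
Cumulative share of clones by fitted log2 coefficient for TFP / DMSO, La+W7 / La+DMSO and the dye term, for the 100 tested members (red) and the 9180 clones tested (grey), with the axis drawn from -1.6 to 1.6. The curves lie close together for La+W7 / La+DMSO, and the members' dye coefficients lie to the right of the others, with a median of 0.40 against 0.0043.

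The mirror rule, with the signs of the W7/La+W7 ratios turned, was met by 129 clones that were higher after La. On TFP arrays 1, 2 and 3 their medians were -0.23, 0.59 and -0.27, opposite in sign to those of the members on arrays 2 and 3 and of the same sign on array 1. On W7/DMSO arrays 1, 2 and 3, which the rule used, they were -0.60, -0.25 and 0.26. Their median dye coefficient was -0.30, and their median SD over the TFP arrays was 0.59, close to that of the members. For TFP/DMSO limma called 0 of the 112 mirror clones tested, and 3.57% had an unadjusted p under 0.05. In position the mirror clones differed, with 11 of 129 (8.53%) in the last row of blocks and 0 in the last block. After block centring 125 clones met the mirror rule, 85 of them mirror clones by the deposited ratios.

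The 100 members tested in the fit were somewhat brighter than the average tested clone. The 22 members left out for signal no higher than the blank spots on a W7/DMSO array are not in these percentiles. Their median mean-intensity percentile among the 9180 clones ran from 55.4 on W7/La+W7 array 2 to 76.2 on W7/DMSO array 1, so array 2 of the choosing experiment was where they were dimmest relative to the rest. On that array the median spot of all 122 members had an intensity of 1415 in the La+W7 channel and 3042 in the W7 channel, whereas the median over 9775 clones was 2011 and 1537. Saturation was rare: 1 member exceeded 60000 scanner units on W7/La+W7 array 1, and 0 did on arrays 2 and 3. By the letters that open their names, 30.3% of the members were T clones and 25.4% N clones, against 38.3% and 24.9% of the 9775. R clones made up 14.8% of the members, against 10.5%. The 26 clones printed on more than 1 spot included 0 members, so no member had a second spot to compare.

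The 3 experiments with W7 also close a loop on a comparison that no array made, DMSO after La against DMSO. Computed as the mean W7 ratio minus the mean W7/La+W7 ratio minus the mean La+W7/La+DMSO ratio, it had a median of -0.73 on the deposited log2 scale over the members and was below 0 for 121 of the 122. Its first terms were bounded by the rule, so the sign was largely set by the choice of members and is given as a description only.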

How the data were processed

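The members and lists were chosen with earlier results of these data known. Per the file headers, the deposited scanner output gives spot intensity and local background in both channels, neither subtracted nor normalized. A second deposited table from the authors holds 1 ratio per spot and array (first over second treatment, linear scale, column medians of 0.95 to 1.01), and its normalization is not stated in these sources. Deposited ratios were averaged over the spots of a clone and put on the log2 scale to find the members and describe them. Blank and unnamed spots were left out.

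For tests, intensities were corrected with normexp (offset 50) and normalized by loess within each array in limma 3.58.1 (R 4.3.3). A clone was tested if it was brighter in 1 of its channels than the 95th percentile of blank spots, on 2 or more arrays of each experiment. The 11 arrays entered 1 fit (lmFit, eBayes) that had 4 experiment coefficients plus a dye term, leaving 6 residual and 6.14 prior degrees of freedom. Calls used a Benjamini-Hochberg adjusted p under 0.05 over 9180 clones. W7/DMSO array 2 had no scanner file of its own, so n = 2 for W7/DMSO in the fit. The fit was tested on simulated data. Errors were drawn independently for each clone and array, without the shifts shared within a block. Changed clones were picked at random from the 9180, so the rates are not those of the members. A simulated log2 change of 1 was called for 38% of the changed clones in TFP/DMSO and 44% in La+W7/La+DMSO. For the dye term it was called for 2%. With a change of 2 the shares were 93%, 95% and 58%, in that order. The number of arrays limits the precision.

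Clones named were the 10 members with the highest mean in W7/La+W7, every member called, the 4 highest and 4 lowest members in each tested experiment, and the 3 on each side of the threshold. Alternatives changed the ratio, background correction, filter, blocks and arrays used. Gene lists and sequences were not used, as no clone name matched a gene.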

Additional observations from a re-analysis of the deposited data

Results flagged for a closer look

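In 3 members, every W7 against DMSO array was above 0 while every La+W7/La+DMSO array was below 0, so the W7 ratio had opposite signs without and with La on all arrays. The difference between the experiments was not tested. The same pattern was found for 141 of the 9775 clones (1.44%), against 2.46% of the members. The W7/DMSO arrays chose the members, and La+W7/La+DMSO shares the La+W7 treatment with the other choosing arrays. Nothing is read from the distance between these shares. The 3 clones are AA042521, H76298 and T46149, named after their values were seen. All 3 lie in the last block of the last row and no longer met the rule after block centring. They were among the members not tested in the fit, for signal no higher than the blank spots on a W7/DMSO array. T46149 gave 0.83, 0.33 and 0.32 without La, and -0.04, -0.10 and -0.89 with it. AA042521 gave 0.21, 0.21 and 0.15 without La, and -0.10, -0.09 and -0.54 with it. H76298 gave 0.61, 0.18 and 0.50 without La, and -0.58, -0.01 and -0.27 with it. Some of these ratios lie very close to 0.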

How the results depend on the processing

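The rule gave 122 members with the deposited ratios, and 145 clones with loess ratios of the scanner files, 98 of them members. It gave 67 clones after block centring, 46 of them members. With print-tip loess it gave 96 clones, of which 43 were members (35.2% of the members). The last 2 settings were chosen after the data had been seen. Leaving out 1 array gave 93 to 328. TFP/DMSO had 223 clones called, but 335 with the deposited ratios and 31 with image folder as a fixed block; with a replicate block it was 136. Leaving out 1 array gave 70 to 272 clones. The 1 member called became 0 under the folder block, the replicate block, trended robust variances and print-tip loess, and 0 to 1 when 1 array was left out. The cause was not tested. H76525 had adjusted p = 0.0682 with the replicate block, which changed no other member's call. Deviations from the experiment means correlated at -0.57 to 0.48 between arrays of the same number, and 2 of 11 arrays correlated best with one of their own number. Deviations within an experiment sum to 0, so these values cannot decide whether the numbers pair the samples. The main fit used no pairing, and the replicate block is given as an alternative. The members' median for La+W7/La+DMSO was 0.0049, but 0.66 with the folder block, and -0.053 to 0.24 when 1 array was left out. For TFP it was -0.12, and 0.37 with the folder block, -0.33 to 0.09 when 1 TFP array was left out and -0.0019 outside the last row of blocks. The members' median dye coefficient was above 0 in every fit that had the term, from 0.13 to 0.73, and 0.22 with print-tip loess. La+W7/La+DMSO had 0 clones called in all 23 fits. Of the members named by rule and called under no fit, 16 of 21 changed sign under some fit for TFP and 15 of 22 for La+W7/La+DMSO, so their directions are not settled.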
